A study of Mus musculus with 24 samples.

Results

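This comparison asks, gene by gene, whether mutant and control mammary cells differed by the same amount in luminal Sca1-negative cells as in basal GFP-positive cells. For each gene, the mutant effect in the basal gate (mutant minus control) was subtracted from the mutant effect in the luminal gate. A positive difference of effects therefore means that the mutant cells stood higher, relative to their control, in the luminal gate than in the basal gate. Of the study's 24 arrays, 12 enter it, 3 in each of 4 groups, and of the genes all 19937 with a probe set of a single gene symbol, so that no gene was chosen by its values. Levels, effects and differences are on the log2 scale throughout, where a difference of 1 is a 2-fold change.

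All mice, controls included, carried Lgr5-creERT2, a tamoxifen-dependent Cre recombinase under the control of Lgr5, on a mixed FVB/C57BL6 background. All were studied 4 weeks after tamoxifen. Mutant mice carried in addition the PIK3CA H1047R transgene, which Cre switches on, so that the mutation starts only in cells that express Lgr5. Basal cells were CD45-negative, CD24 low and Sca1-negative, and luminal cells CD45-negative, CD24 high and here Sca1-negative. GFP marked cells that expressed Lgr5, the transgene or both. The 4 groups are control basal GFP-positive cells, mutant basal GFP-positive cells, control luminal Sca1-negative GFP-negative cells and mutant luminal Sca1-negative GFP-positive cells. In the luminal gate genotype and GFP state thus go together and cannot be told apart, and in the basal gate the transgene can add to the GFP of mutant cells alone. Each array holds amplified RNA of 250 cells from a pool of 2 to 3 mice, and the 3 arrays of a group come from 3 independent sortings, so the p-values set each difference against the variation from pool to pool. The age of the mice was not given in the sources used here.

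The mammary duct has an inner luminal layer, from which the milk-secreting alveolar cells arise, and an outer basal layer of contractile myoepithelial cells. PIK3CA encodes the catalytic subunit of a phosphoinositide 3-kinase, which passes signals from growth factor receptors to AKT and mTOR, and the H1047R change makes the enzyme more active. Lgr5 is a receptor for R-spondins that amplifies Wnt signals and marks a subset of basal mammary cells. Keratins 5 and 14 are typical of basal cells and keratins 8 and 18 of luminal cells.

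The markers followed the gates in order of level, although luminal keratins were also high in basal cells. Krt8 averaged 10.66 in control basal, 11.00 in mutant basal, 12.56 in control luminal and 12.45 in mutant luminal cells. Krt18 averaged 9.63, 10.18, 12.63 and 12.59 in the same order. The basal and myoepithelial list (26 genes) averaged 9.46 to 9.84 on the basal arrays, 5.64 to 5.69 on the control luminal arrays and 6.46 to 6.95 on the mutant luminal arrays. Ptprc, which encodes CD45, averaged 4.06 to 4.35 in the 4 groups, under the median of all genes over the 24 arrays (4.60, the dim level below), and 16 of 18 leukocyte markers were dim in all 4 groups. Cd24a, the gate antigen CD24, averaged 10.67 to 11.41, with a difference of effects of -0.29 (95% confidence interval -0.92 to 0.33). The deposited values ran from 2.59 to 13.54, and arrays of a group correlated across genes at 0.934 to 0.979. The arrays of control basal GFP-positive cells differed from the rest: within an array the values had a standard deviation of 1.86 on average, against 1.97 in mutant basal GFP-positive arrays, and dim genes averaged 4.06 there and 3.92 in the mutant arrays. The part of this gap in the results was not tested, and the number of arrays limits the precision. The median standard error of the difference of effects was 0.25.

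The mutant effect differed between the gates for 205 genes (1.03% of those tested) by limma at a Benjamini-Hochberg adjusted p under 0.05. Of these, 76 (0.381%) were higher in the luminal gate and 129 (0.647%) were lower, and 64 and 112 of them differed by at least 2-fold. The mutant effect on its own was called for 111 genes higher (0.557%) and 34 lower (0.171%) in the luminal gate. In the basal gate it was called for 946 genes higher (4.74%) and 1558 lower (7.81%). The basal direction depends on the scaling: centring each array on its median, which moves the median basal effect of all genes from -0.10 to 0.00, gave 1001 higher and 333 lower. The basal count also rests on single arrays, since leaving out any 1 of the 6 basal arrays moved it by over 1.5 times, to between 1034 and 1388 genes, or to 3979 without control basal GFP-positive replicate 2. Without that same array the difference of effects was called for 402 genes in place of 205. Across all genes the luminal and basal effects, which share no array, correlated at a Pearson r of 0.33 and a Spearman rho of 0.30, a description across genes that are not independent replicates.

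Most of the 205 genes were also called for the basal effect alone. Of the 129 genes lower in the luminal gate, 114 rose in the basal gate with no call in the luminal gate, 8 fell in the luminal gate alone, 3 rose in the basal and fell in the luminal gate, 3 rose in both, and 1 was called in neither. Of the 76 genes higher in the luminal gate, 35 rose in the luminal gate alone, 29 fell in the basal gate alone, 5 did both, 1 rose in both, and 6 were called in neither. The effects had opposite signs for 114 of the 205, a count that choosing genes by their difference favours. The plot of both effects shows many of these genes along its axes. That they lie off the line of equal effects follows from the call itself.

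**Figure D1:**
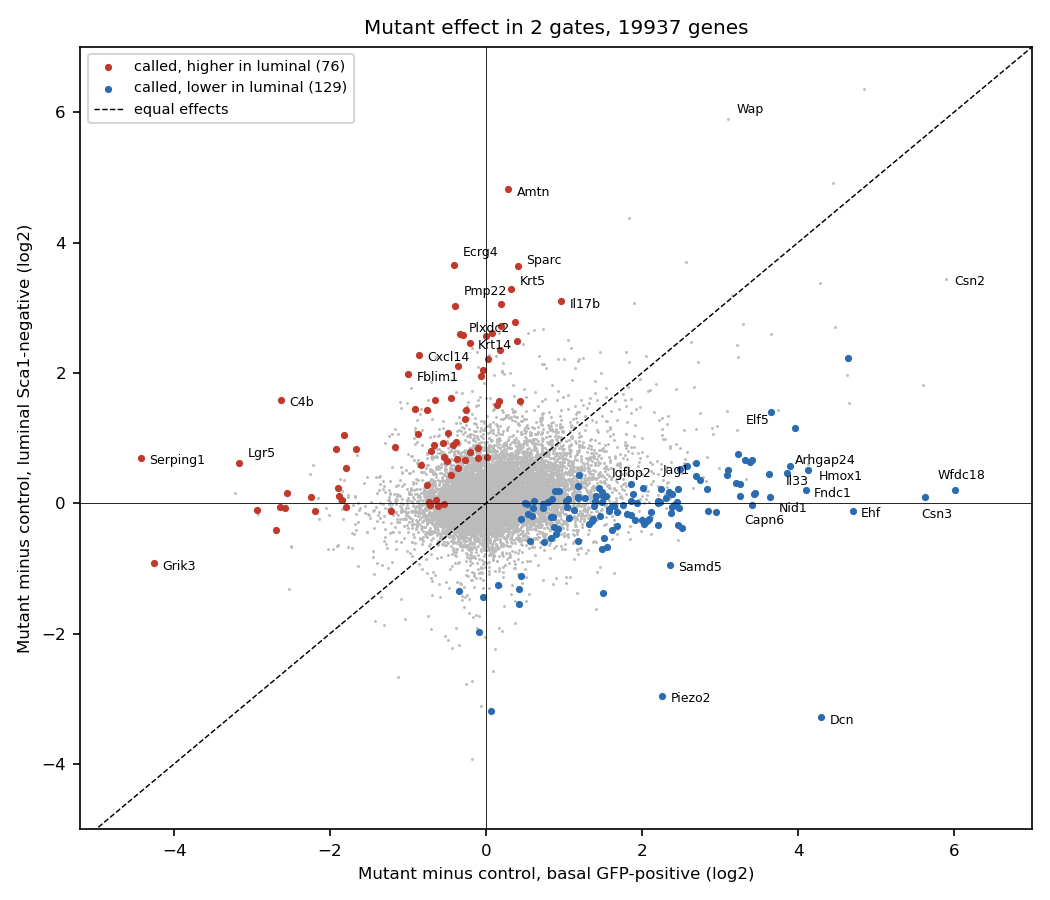
Each point is 1 of 19937 genes, with its mutant effect (mutant minus control, log2) in basal GFP-positive cells on the x axis and in luminal Sca1-negative cells on the y axis. Red points are the 76 genes whose effect was higher in the luminal gate and blue points the 129 genes whose effect was lower, both by limma at an adjusted p under 0.05, and the dashed line marks equal effects. Most blue points lie along the positive x axis, where the basal effect alone was large, and Amtn, Ecrg4, Sparc and Krt5 lie along the positive y axis.

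The widest differences among secretory genes concerned milk proteins that mutant basal cells gained and that luminal cells of both genotypes already had. Csn3, which encodes kappa-casein (chromosome 5, 87925579 to 87932550, GRCm38.p6), stood at 3.99, 7.07 and 4.98 on the control basal arrays and at 10.99, 10.93 and 11.01 on the mutant basal arrays. It stood at 10.81, 11.03 and 11.07 on the control luminal arrays and at 11.07, 11.00 and 11.14 on the mutant luminal arrays. All mutant basal arrays lay above all control basal arrays and within the range of the luminal arrays, whereas the luminal groups overlapped. Its effect was 5.63 in the basal gate and 0.10 in the luminal gate, a difference of -5.53 ± 0.72 (SE, 3 arrays a group; limma adjusted p = 0.00034).

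Wfdc18, a whey acidic protein-type gene expressed in mammary epithelium (chromosome 11, 83709004 to 83711360), had the same form. Its 3 control basal arrays read 4.80, 7.69 and 4.88, its mutant basal arrays 12.04, 12.08 and 11.26, its control luminal arrays 12.61, 12.48 and 12.46 and its mutant luminal arrays 12.72, 12.73 and 12.73. The mutant basal cells had come close to a luminal level that itself differed by 0.21 between genotypes. The highest deposited value of any gene was 13.54, and whether levels this high limited a luminal rise was not tested. In luminal Sca1-positive cells, outside this comparison, Wfdc18 averaged 9.61 in control and 11.86 in mutant mice. The difference of effects was -5.80 ± 1.12 (limma adjusted p = 0.0142). Mfge8, which encodes a milk fat globule protein that also bridges dying cells to phagocytes, averaged 7.99 ± 0.47 (SD, n = 3) in control basal, 11.38 ± 0.09 in mutant basal, 11.15 ± 0.38 in control luminal and 11.78 ± 0.08 in mutant luminal cells. It rose in the basal gate by 3.39, its luminal effect of 0.64 was not called, and its difference of effects was -2.75 ± 0.54 (limma adjusted p = 0.0146). It was the only call among 13 measured milk fat secretion genes (median 0.02).

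These 3 calls rested on the control basal cells chosen. The luminal keratin and junction list averaged 6.54 to 7.29 on the control and 6.89 to 7.79 on the mutant basal GFP-positive arrays, and its part in these results was not tested. In bulk samples such as these, more cells of a type and more RNA per cell cannot be told apart. In control basal GFP-negative cells Csn3 averaged 8.73, Wfdc18 7.66 and Mfge8 9.51. With these as the basal reference the differences were -2.14, -3.93 and -1.23, and none passed (limma adjusted p = 0.247, 0.140 and 0.459).

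Other milk genes rose in mutant cells of both gates, and their differences of effects did not pass. Csn2, which encodes beta-casein (chromosome 5, 87692619 to 87699429), read 5.10, 5.26 and 5.11 in control basal, 12.28, 10.17 and 10.70 in mutant basal, 8.80, 8.96 and 9.46 in control luminal and 12.65, 12.46 and 12.40 in mutant luminal cells. Mutant arrays lay above control arrays in both gates, and the gene rose by 5.90 in the basal and 3.44 in the luminal gate. The difference of -2.46 had a 95% confidence interval of -4.29 to -0.63 and did not pass (limma adjusted p = 0.250). Wap, the whey acidic protein gene (chromosome 11, 6635483 to 6638654), read 4.56, 4.51 and 4.95 in control basal, 9.79, 7.22 and 6.32 in mutant basal, 4.80, 6.72 and 4.45 in control luminal and 11.88, 11.03 and 10.75 in mutant luminal cells. Mutant luminal arrays were the highest and mutant basal arrays the most spread. Wap rose by 5.90 in the luminal and 3.10 in the basal gate, and its difference of 2.80 (95% confidence interval -0.15 to 5.74) did not pass (limma adjusted p = 0.450).

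The upstream sequences of 3 of these genes are shown because their products belong to 1 secretory programme while the genes behaved differently between the gates: Csn2 and Wap rose in both and Wfdc18 in the basal gate alone. Each run is the 250 bases before the start given in the RefSeq promoter set in GRCm38.p6, read 5′ to 3′ on the gene's strand, with capitals for matches to TTCNNNGAA, the palindromic core bound by STAT factors, which reads the same on both strands. For Csn2 and Wap the last few bases of the run overlap the gene interval given above.
Csn2 (chr5:87699426-87699675, minus strand): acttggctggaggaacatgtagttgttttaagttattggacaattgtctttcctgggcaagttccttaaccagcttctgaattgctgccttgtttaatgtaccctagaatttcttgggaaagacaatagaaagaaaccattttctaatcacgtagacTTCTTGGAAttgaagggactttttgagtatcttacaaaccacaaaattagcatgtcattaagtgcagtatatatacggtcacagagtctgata
Wap (chr11:6638650-6638899, minus strand): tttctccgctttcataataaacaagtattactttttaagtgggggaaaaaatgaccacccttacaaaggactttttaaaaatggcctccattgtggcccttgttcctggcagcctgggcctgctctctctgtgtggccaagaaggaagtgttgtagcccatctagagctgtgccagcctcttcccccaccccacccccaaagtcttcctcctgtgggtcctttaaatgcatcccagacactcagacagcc
Wfdc18 (chr11:83708754-83709003, plus strand): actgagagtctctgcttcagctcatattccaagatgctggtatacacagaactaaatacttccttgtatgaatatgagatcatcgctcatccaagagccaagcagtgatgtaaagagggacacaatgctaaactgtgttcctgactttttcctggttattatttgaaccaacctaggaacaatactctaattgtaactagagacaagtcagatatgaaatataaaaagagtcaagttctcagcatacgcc
The Csn2 window held 1 match, which starts at position -93 counted back from the end of the window, and the Wap and Wfdc18 windows held none of these letters. Of 32851 RefSeq promoter windows of this length, 2306 (7.02%) held a match, so the count describes these windows and nothing about the factor.

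Further genes of the milk protein list went the other way. Wfdc3, another gene of the whey acidic protein family (chromosome 2, 164731226 to 164745994), read 4.50, 4.41 and 4.34 in control basal, 5.01, 4.95 and 4.38 in mutant basal, 4.77, 4.99 and 4.77 in control luminal and 8.23, 7.47 and 7.17 in mutant luminal cells. Only the mutant luminal arrays stood clear of the others, and the basal groups overlapped. The difference of effects was 2.41 ± 0.35 (limma adjusted p = 0.000989), and 1.29 where all probe sets of the gene were averaged. Lao1, an L-amino acid oxidase of milk named here after its values were seen, averaged 4.68, 4.75, 4.86 and 7.48 in the same order, a difference of 2.54 (limma adjusted p = 0.0208). Of the 12 measured genes of that list, 2 were therefore higher in the luminal gate (Wfdc3 and Lao1) and 2 lower (Csn3 and Wfdc18). The median difference of the 12 was -0.22 against 0.07 over all genes. Wfdc3 is in the list by its family, and whether its product is in milk was not tested.

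Elf5, the transcription factor of alveolar cells, averaged 4.14 ± 0.19 in control basal, 7.36 ± 1.57 in mutant basal, 8.01 ± 0.76 in control luminal and 9.13 ± 0.60 in mutant luminal cells. It rose in the basal gate by 3.22 (limma adjusted p = 0.0144), but the difference of effects of -2.10 had an interval of -4.38 to 0.18 and did not pass (limma adjusted p = 0.466). Ehf, a related ETS factor of luminal epithelium (chromosome 2, 103263431 to 103303275), gave a sharper contrast. Its arrays read 5.47, 5.58 and 4.81 in control basal, 10.26, 9.90 and 9.82 in mutant basal, 11.14, 10.92 and 11.02 in control luminal and 11.06, 10.73 and 10.93 in mutant luminal cells. Mutant basal cells thus reached about 1 unit below the luminal cells, whose groups overlapped. The difference of effects was -4.82 ± 0.42 (limma adjusted p = 3.42e-06), and -5.01 against GFP-negative control basal cells. Of 19 measured luminal keratin and junction genes Ehf alone was called, and the list's median was -0.22. Krt8 (-0.46, interval -1.08 to 0.17) and Krt18 (-0.58, interval -1.61 to 0.44) did not pass. Of 17 measured luminal progenitor genes, 3 were lower in the luminal gate (Wfdc18, Csn3 and Mfge8), none was higher, and the median was -0.55.

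**Figure D2:**
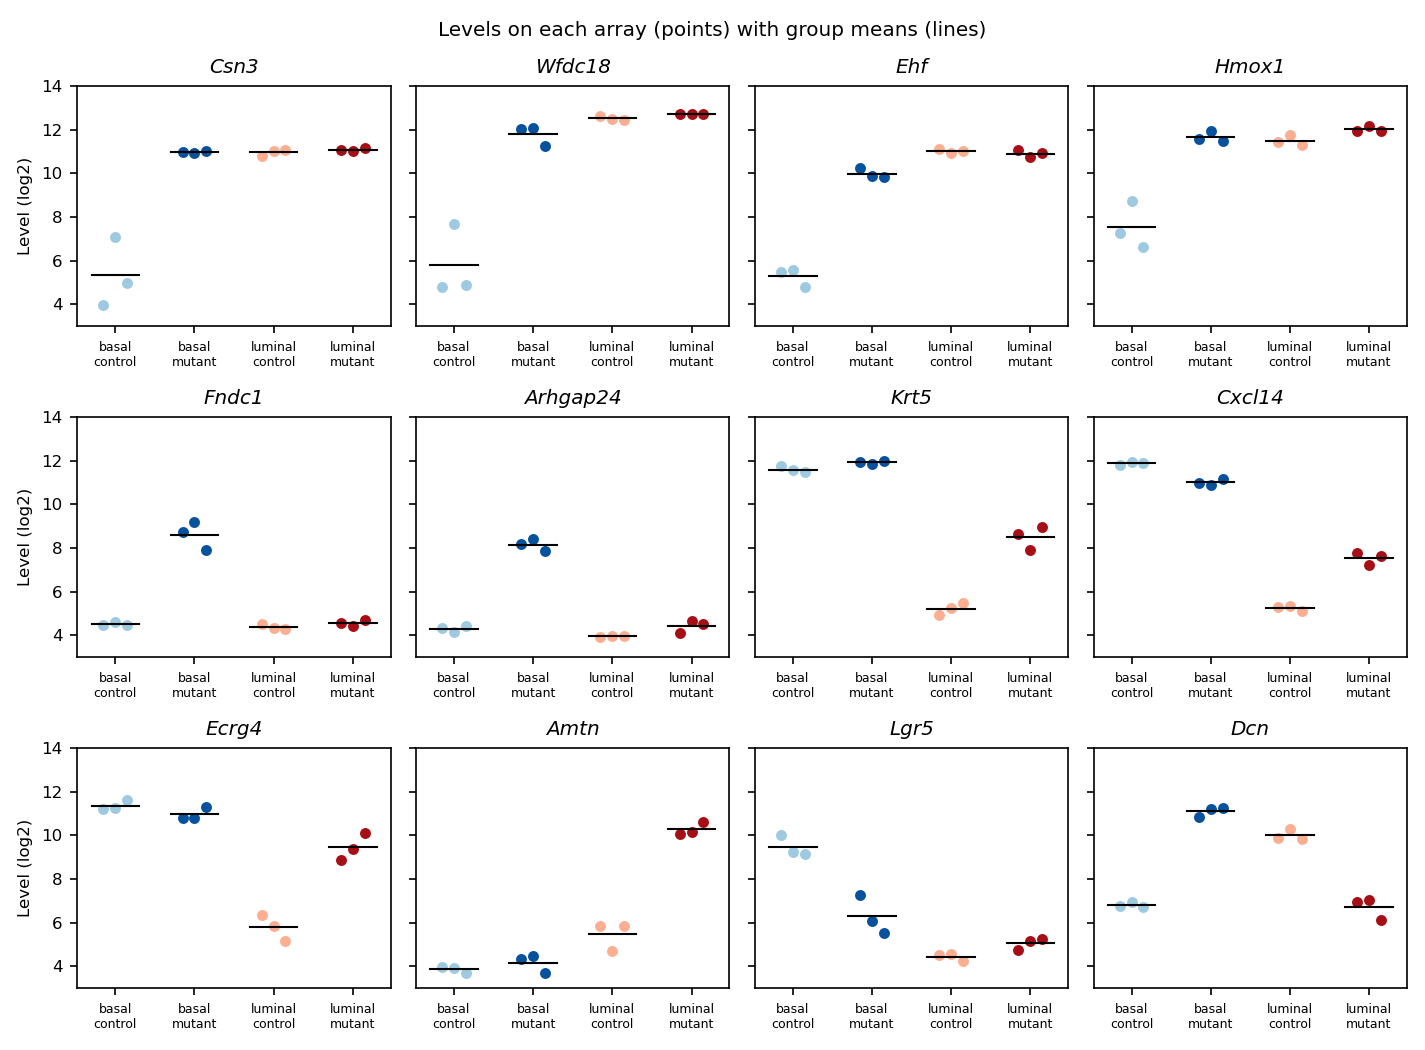
Levels (log2) of 12 genes on each array, with 3 points per group (control and mutant basal GFP-positive in light and dark blue, control and mutant luminal Sca1-negative in light and dark red) and a line at the group mean. Csn3, Wfdc18, Ehf and Hmox1 are low in control basal cells alone, Fndc1 and Arhgap24 are high in mutant basal cells alone, Krt5, Cxcl14 and Ecrg4 rise in mutant luminal cells towards the basal level, and Dcn moves in opposite directions.

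Hmox1, which encodes the heme-degrading enzyme heme oxygenase 1, followed the form of Csn3 (chromosome 8, 75093618 to 75100593). It read 7.27, 8.74 and 6.64 in control basal, 11.59, 11.95 and 11.49 in mutant basal, 11.46, 11.77 and 11.28 in control luminal and 11.92, 12.19 and 11.94 in mutant luminal cells. Only the control basal arrays stood low. The difference of effects was -3.61 ± 0.58 (limma adjusted p = 0.00354) and -2.49 against GFP-negative control basal cells (limma adjusted p = 0.0458). Il33, the alarmin interleukin 33, averaged 4.82 ± 0.19 in control basal, 8.71 ± 0.62 in mutant basal, 6.01 ± 0.45 in control luminal and 6.58 ± 0.83 in mutant luminal cells. The luminal groups overlapped, and the difference was -3.33 ± 0.58 (limma adjusted p = 0.0061). In luminal Sca1-positive cells, outside this comparison, Il33 averaged 7.82 in control and 10.68 in mutant mice.

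A second set of genes was gained in mutant basal cells and was near or under the dim level in luminal Sca1-negative cells. Fndc1, which encodes a fibronectin type III domain protein (chromosome 17, 7738569 to 7827340), read 4.48, 4.60 and 4.49 in control basal and 8.74, 9.20 and 7.92 in mutant basal cells. In luminal cells it read 4.51, 4.32 and 4.29 in control and 4.58, 4.42 and 4.72 in mutant mice. Only the mutant basal GFP-positive arrays were raised, since mutant basal GFP-negative cells averaged 4.37. The difference of effects was -3.90 ± 0.27 (limma adjusted p = 2.7e-07).

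Arhgap24, a Rac-directed GTPase-activating protein (chromosome 5, 102207198 to 102905035), behaved alike. It read 4.32, 4.15 and 4.41 in control basal, 8.18, 8.40 and 7.86 in mutant basal, 3.94, 3.99 and 3.98 in control luminal and 4.09, 4.68 and 4.54 in mutant luminal cells. The mutant luminal arrays lay above the control luminal arrays but under 5, and mutant basal GFP-negative cells averaged 4.46. Its difference was -3.39 ± 0.29 (limma adjusted p = 2.62e-06). Capn6, a calpain family member on the X chromosome, averaged 4.21 ± 0.12 in control basal, 7.62 ± 0.46 in mutant basal, 4.07 ± 0.03 in control luminal and 4.04 ± 0.09 in mutant luminal cells, a difference of -3.45 ± 0.37 (limma adjusted p = 3.75e-05). Nid1, the basement membrane protein nidogen 1, averaged 4.93 ± 0.22, 8.58 ± 0.16, 4.67 ± 0.19 and 4.76 ± 0.35 in the same order, a difference of -3.55 ± 0.65 (limma adjusted p = 0.009). In both genes the luminal groups overlapped. Outside this comparison, Nid1 averaged 4.58 in control and 7.02 ± 1.49 in mutant luminal Sca1-positive cells, and Capn6 4.01 and 4.12. Of the 120 genes that were lower in the luminal gate and rose in the basal gate, 38 were dim in both luminal groups, 29 were dim in both controls, and 30 had a control luminal level over 1 unit above the control basal level.

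Growth factor and ligand genes were among those gained in basal cells. Jag1, a Notch ligand (chromosome 2, 137081451 to 137116520), read 7.14, 7.30 and 6.72 in control basal, 9.82, 9.90 and 9.68 in mutant basal, 5.46, 4.84 and 5.35 in control luminal and 5.47, 5.26 and 5.98 in mutant luminal cells. The mutant basal arrays were the highest by more than 2 units and the luminal groups overlapped. Its difference was -2.39 ± 0.34 (limma adjusted p = 0.000917), and it was the only 1 of 20 measured Notch pathway genes to be called (list median -0.06).

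Igfbp4, which binds insulin-like growth factors and limits their action, averaged 5.52 ± 0.35 in control basal, 8.77 ± 0.23 in mutant basal, 5.53 ± 0.20 in control luminal and 5.64 ± 0.30 in mutant luminal cells, a difference of -3.14 ± 0.57 (limma adjusted p = 0.00865). Igfbp2, another such binding protein, averaged 7.92 ± 0.28, 10.17 ± 0.54, 5.55 ± 0.13 and 5.77 ± 0.24, a difference of -2.03 ± 0.37 (limma adjusted p = 0.00867). Neither luminal pair was apart. Control basal GFP-negative cells already held Igfbp2 at 9.91 and Igfbp4 at 6.86, and against them the differences were -0.05 and -1.79 (limma adjusted p = 0.994 and 0.206), so both calls ended. Igfbp3, also of this family and named after its values were seen, rose in the luminal gate by 4.38 (limma adjusted p = 0.0047), but its difference of 2.54 did not pass (limma adjusted p = 0.331). Of 10 measured genes of this list, 2 were lower in the luminal gate and none was higher, with a median of -0.21.

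Among the 76 genes that were higher in the luminal gate, 14 rose there from a control luminal level over 1 unit below the control basal level. Krt5 (chromosome 15, 101707069 to 101712905) read 11.77, 11.56 and 11.46 in control basal, 11.93, 11.84 and 11.99 in mutant basal, 4.93, 5.24 and 5.47 in control luminal and 8.63, 7.92 and 8.94 in mutant luminal cells. All mutant luminal arrays lay above all control luminal arrays and below all basal arrays. The gene rose by 3.29 in the luminal gate (limma adjusted p = 0.000572), its basal effect was 0.32, and the difference was 2.96 ± 0.61 (limma adjusted p = 0.0214). Krt14, its partner keratin, averaged 11.59 ± 0.07 in control basal, 11.38 ± 0.11 in mutant basal, 6.50 ± 0.36 in control luminal and 8.96 ± 0.25 in mutant luminal cells. Its difference was 2.67 ± 0.59 (limma adjusted p = 0.0323).

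Sparc, a secreted matrix-binding protein, averaged 11.95 ± 0.07 in control basal, 12.35 ± 0.06 in mutant basal, 5.11 ± 0.54 in control luminal and 8.74 ± 0.42 in mutant luminal cells, a difference of 3.23 ± 0.73 (limma adjusted p = 0.0353). Vim, the intermediate filament vimentin, averaged 11.02 ± 0.05, 10.57 ± 0.0047, 6.55 ± 0.25 and 8.16 ± 0.34, a difference of 2.06 ± 0.47 (limma adjusted p = 0.0408). Il17b, a cytokine made by myoepithelial cells, rose in both gates, by 3.10 in the luminal (from 5.59 ± 0.25 to 8.69 ± 0.48) and by 0.96 in the basal gate (from 9.54 ± 0.19 to 10.50 ± 0.13). Its difference was 2.14 ± 0.33 (limma adjusted p = 0.00186).

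The calls of the keratins, Sparc and Vim lay near the threshold in the main fit. Krt5 lost its call without control basal replicate 1, mutant basal replicate 2, control luminal replicate 1 or mutant luminal replicate 3 (limma adjusted p from 0.0505 to 0.0590). Krt14 kept it only without control basal replicate 2, control luminal replicate 1 or mutant luminal replicate 1, and its adjusted p was 0.0611 to 0.0862 without each of the other 9. Sparc kept it only without control basal replicate 2 or control luminal replicate 2 (0.0545 to 0.108 without each of the other 10), and Vim only without control basal replicate 2 (0.0529 to 0.103 without each of the other 11). Against GFP-negative control basal cells the differences of Krt14 (2.46) and Vim (1.80) had limma adjusted p-values of 0.0531 and 0.0930. With array weights the calls of Sparc (limma adjusted p = 0.0648), Krt14 (0.0661) and Vim (0.0677) were lost, and Vim also lost its call with each array centred on its median (0.0539). With the 12 arrays alone the calls of the keratins, Sparc and Vim held (limma adjusted p from 0.00109 to 0.00362).

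Cxcl14, Ecrg4, Pmp22, Plxdc2 and Fblim1 went in the same direction and were called under all 21 alternatives. With the 12 arrays alone only Cxcl14 (limma adjusted p = 0.00016) lay below both keratins. Ecrg4 then had 0.00577, Fblim1 0.0111, Pmp22 0.0168 and Plxdc2 0.0338, against 0.00109 for Krt14 and 0.0032 for Krt5. Cxcl14, a chemokine that basal cells expressed strongly (chromosome 13, 56288643 to 56296811), read 11.79, 11.95 and 11.89 in control basal, 11.00, 10.89 and 11.16 in mutant basal, 5.30, 5.35 and 5.10 in control luminal and 7.77, 7.21 and 7.62 in mutant luminal cells. It fell in the basal and rose in the luminal gate, with no overlap in either. The difference was 3.14 ± 0.30 (limma adjusted p = 9.87e-06). Ecrg4, which encodes the secreted peptide precursor augurin (chromosome 1, 43730602 to 43742564), read 11.20, 11.25 and 11.64 in control basal, 10.77, 10.79 and 11.30 in mutant basal, 6.37, 5.85 and 5.15 in control luminal and 8.89, 9.36 and 10.10 in mutant luminal cells. The basal groups overlapped and the luminal groups did not, and the difference was 4.07 ± 0.74 (limma adjusted p = 0.00867).

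Pmp22, a tetraspan membrane protein of myelin and epithelia, averaged 10.31 ± 0.48 in control basal, 9.92 ± 0.22 in mutant basal, 5.46 ± 0.79 in control luminal and 8.49 ± 0.26 in mutant luminal cells (difference 3.42 ± 0.60, limma adjusted p = 0.00674). Plxdc2, a transmembrane plexin-domain protein, averaged 9.71 ± 0.48, 9.37 ± 0.26, 5.46 ± 0.73 and 8.05 ± 0.26 (difference 2.93 ± 0.50, limma adjusted p = 0.00578). Fblim1, a filamin-binding adhesion protein, averaged 8.63 ± 0.37, 7.64 ± 0.33, 5.45 ± 0.37 and 7.42 ± 0.46 (difference 2.97 ± 0.50, limma adjusted p = 0.00478). For these 3 genes the mutant luminal arrays lay above the control luminal arrays without overlap. Of the 26 measured basal and myoepithelial genes, 6 were higher in the luminal gate (Krt5, Krt14, Tagln, Sparc, Vim and Il17b) and 1 was lower (Igfbp2), with a median of 1.0, the farthest from 0 among the 32 lists. Of the smooth muscle contractile genes in that list, grouped after their values were seen, Tagln (transgelin) passed with a difference of 1.51 (limma adjusted p = 0.0385). Acta2, Myh11, Cnn1, Lmod1, Myl9, Actg2 and Mylk had differences from -1.11 to 2.19 and did not pass (limma adjusted p from 0.0634 to 0.834). Of 19 mesenchymal transition and matrix genes, Vim and Sparc were higher, none was lower and the median was 0.13. The basal list's rise on the mutant luminal arrays, given above, moved with these genes, and its part in each was not tested.

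**Figure D3:**
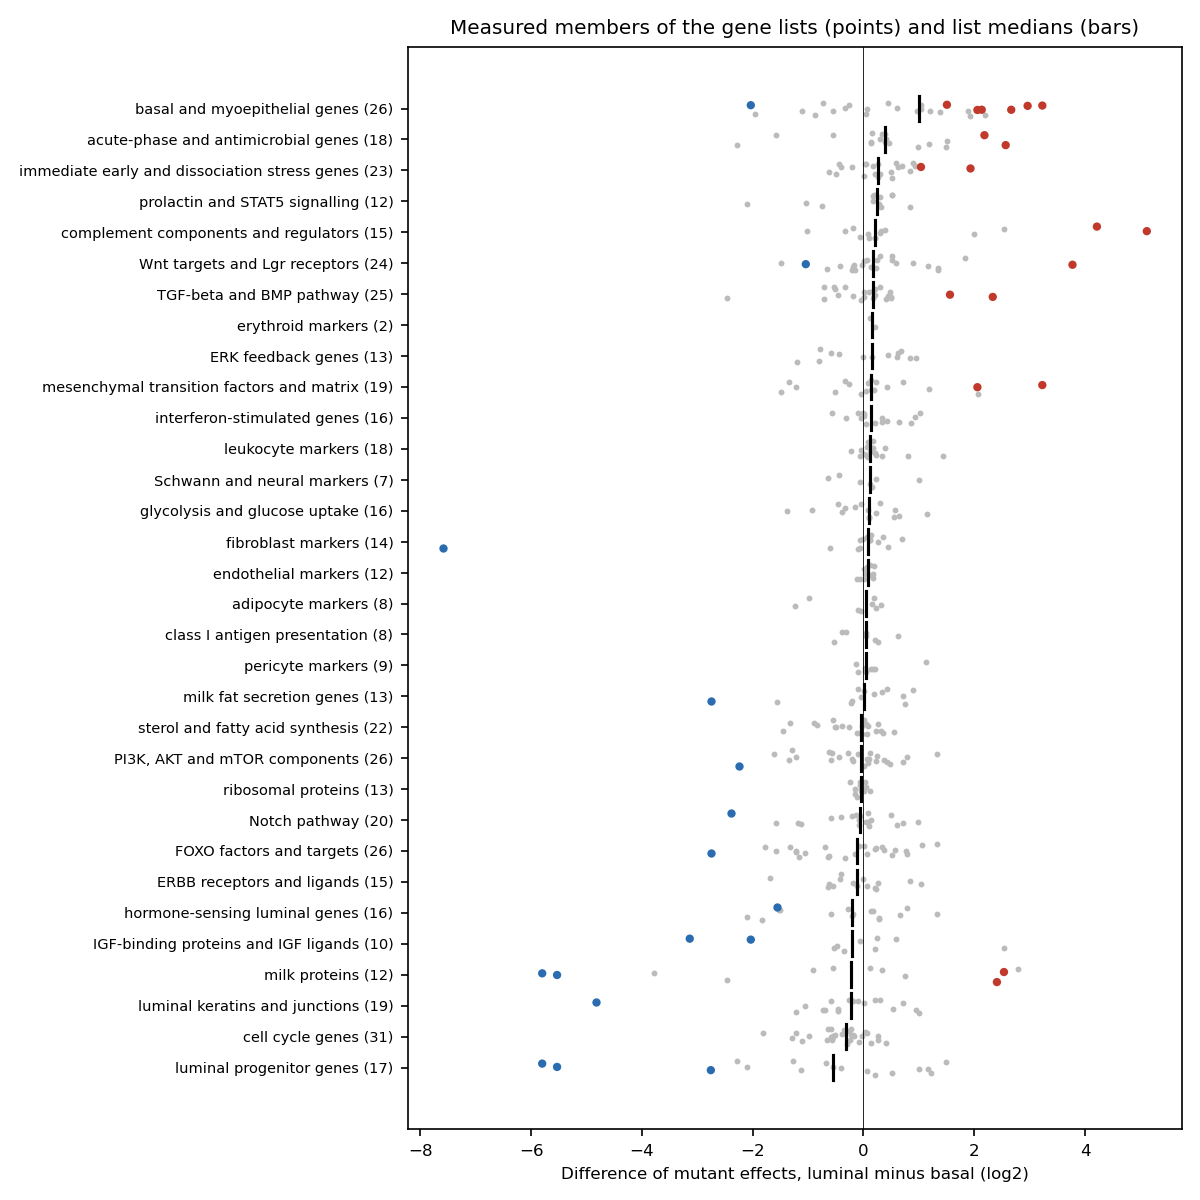
Difference of effects (log2, x axis) of each measured member of the 32 gene lists, with the number of measured members in parentheses, red points for genes called higher and blue points for genes called lower in the luminal gate, grey for genes not called, and a bar at the list's median. The basal and myoepithelial list has a median of 1.0 and the luminal progenitor list one of -0.55, and Dcn is the single called member of the fibroblast list.

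Some genes were gained in mutant luminal cells and were at or under the dim level in basal cells. Amtn, which encodes amelotin, a secreted protein known from enamel formation (chromosome 5, 88376108 to 88385916), read 4.00, 3.95 and 3.72 in control basal, 4.36, 4.47 and 3.70 in mutant basal, 5.85, 4.70 and 5.86 in control luminal and 10.08, 10.18 and 10.60 in mutant luminal cells. The mutant luminal arrays stood over 4 units above every other array of the comparison, and the basal groups overlapped. Amtn rose by 4.82 in the luminal gate, and the difference was 4.53 ± 0.43 (limma adjusted p = 9.87e-06). It also stood higher in mutant than in control luminal Sca1-positive cells, which lie outside this comparison (6.70 against 3.75). Pglyrp1, an antibacterial peptidoglycan-binding protein, averaged 4.53 ± 0.19 in control basal, 4.53 ± 0.18 in mutant basal, 5.04 ± 0.51 in control luminal and 7.61 ± 0.51 in mutant luminal cells. Its difference of 2.57 ± 0.59 (limma adjusted p = 0.0393) lost its call without any of 10 arrays, keeping it only without control basal replicate 2 or control luminal replicate 3 (limma adjusted p 0.0549 to 0.0998 for the 10), and also after quantile normalization (0.0749). The call held with the 12 arrays alone (limma adjusted p = 0.0217).

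Slpi, a secreted inhibitor of leukocyte proteases, was high in every group and moved in both gates. It averaged 12.40 ± 0.09 in control basal, 11.65 ± 0.46 in mutant basal, 10.11 ± 0.12 in control luminal and 11.55 ± 0.35 in mutant luminal cells, and its difference was 2.19 ± 0.27 (limma adjusted p = 0.000173). Of 18 measured acute-phase and antimicrobial genes, 2 were higher in the luminal gate (Slpi and Pglyrp1) and none was lower, with a median of 0.39. Saa1, an acute-phase serum amyloid gene named after its values were seen, rose in both gates, by 6.35 in the luminal and 4.85 in the basal gate, and its difference of 1.5 did not pass (limma adjusted p = 0.689).

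A further group of genes higher in the luminal gate fell in basal cells. Lgr5 (chromosome 10, 115450314 to 115587780) read 10.00, 9.26 and 9.14 in control basal, 7.29, 6.08 and 5.53 in mutant basal, 4.53, 4.56 and 4.25 in control luminal and 4.75, 5.17 and 5.25 in mutant luminal cells. The control basal gate takes cells by Lgr5-linked GFP, whereas mutant cells can be GFP-positive through the transgene, so that the basal effect of -3.16 and the gate cannot be told apart. The difference was 3.77 ± 0.56 (limma adjusted p = 0.0013) and 2.38 against GFP-negative control basal cells, where Lgr5 averaged 8.07 (limma adjusted p = 0.0458).

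Grik3, a kainate receptor subunit, read 9.62, 9.57 and 9.56 in control basal and 5.50, 5.58 and 4.90 in mutant basal cells. Its luminal arrays read 6.07, 5.72 and 5.73 in control and 4.98, 4.92 and 4.85 in mutant mice. It fell by 4.26 in the basal gate, and the luminal effect of -0.92 was not called, so the difference was 3.33 ± 0.62 (limma adjusted p = 0.0105). Mutant basal GFP-negative cells still averaged 8.98. Ltbp2, a latent TGF-beta binding protein, fell from 10.14 ± 0.18 to 8.34 ± 0.25 in the basal gate, with 5.17 ± 0.47 and 5.71 ± 0.34 in the luminal gate, a difference of 2.34 ± 0.41 (limma adjusted p = 0.00654).

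Of 15 measured complement genes, 4 fell in basal cells and none rose, where 7.81% of all genes fell and 4.74% rose. The median basal effect was -0.22, against -0.10 over all genes. Of the 4 that fell, C1qb and Cfi were dim in all 4 groups, and the others were C4b and Serping1. C4b, which encodes complement component 4, read 8.17, 8.17 and 8.22 in control basal, 5.66, 5.53 and 5.49 in mutant basal, 6.47, 6.66 and 5.81 in control luminal and 7.65, 8.04 and 8.03 in mutant luminal cells. The order of the gates turned over: basal cells were the higher in control and luminal cells the higher in mutant mice. The difference was 4.22 ± 0.76 (limma adjusted p = 0.00821), with the luminal rise of 1.59 not called on its own (limma adjusted p = 0.243). Serping1, the C1 inhibitor, read 8.67, 8.76 and 8.16 in control basal, 4.36, 4.04 and 3.92 in mutant basal, 4.96, 5.07 and 4.29 in control luminal and 5.64, 6.04 and 4.71 in mutant luminal cells. It fell by 4.43 in the basal gate, and its difference of 5.12 ± 1.10 was the largest positive value among the named genes (limma adjusted p = 0.0274). That call was lost without control basal replicate 1, any of the 3 mutant basal arrays, control luminal replicate 3 or mutant luminal replicate 1 or 2 (limma adjusted p 0.0530 to 0.0776), and against GFP-negative control basal cells (3.19, limma adjusted p = 0.262). The call held with the 12 arrays alone (limma adjusted p = 0.00109). Of the complement genes, 2 were higher in the luminal gate, none was lower, and the median was 0.22.

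Genes that moved in opposite directions gave the largest difference of all named genes. Dcn, which encodes the matrix proteoglycan decorin (chromosome 10, 97479500 to 97518163), read 6.76, 6.94 and 6.71 in control basal, 10.84, 11.22 and 11.25 in mutant basal, 9.88, 10.27 and 9.85 in control luminal and 6.96, 7.05 and 6.13 in mutant luminal cells. It rose by 4.30 in the basal gate and fell by 3.29 in the luminal gate, with no overlap in either. The difference was -7.59 ± 0.97 (limma adjusted p = 0.00031) and -5.07 against GFP-negative control basal cells, where it averaged 9.32. Dcn is also a fibroblast gene, so the other fibroblast markers stand beside it. The difference of effects was called for none of the other 13 measured (limma, 2 of them at an unadjusted p under 0.05, against 11.8% of all genes). The list of 14, Dcn included, averaged 4.59 to 4.81 on the control basal and 4.75 to 4.95 on the mutant basal arrays. It averaged 4.70 to 4.75 on the control luminal and 4.29 to 4.56 on the mutant luminal arrays. These means were not taken without Dcn, which moves them. The median effect of the list was -0.11 in the basal and -0.06 in the luminal gate, against -0.10 and -0.04 over all genes. In the basal gate Col1a2, a chain of type I collagen, rose with Dcn from 5.59 to 6.06 (limma adjusted p = 0.0448), and Pi16 fell from 4.22 to 3.71 (limma adjusted p = 0.00227). Of the 14 genes 7 were dim in all 4 groups, among them Lum (lumican) and Pdgfra, which were named after their values were seen and averaged 3.37 to 3.43 and 4.03 to 4.2. The part of these markers in the Dcn values was not tested.

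Piezo2, a mechanically gated ion channel, read 4.26, 4.2 and 4.29 in control basal, 7.45, 5.62 and 6.46 in mutant basal, 7.22, 6.28 and 8.37 in control luminal and 4.39, 4.24 and 4.38 in mutant luminal cells. It was at the dim level or below in control basal and mutant luminal cells, rose by 2.26 in the basal gate and fell by 2.95 in the luminal gate. Its difference was -5.21 ± 0.68 (limma adjusted p = 0.00034). Samd5, a SAM-domain gene, rose from 5.76 ± 0.16 to 8.12 ± 0.30 in the basal gate and went from 6.98 ± 0.24 to 6.02 ± 0.39 in the luminal gate, where the effect was not called. Its difference was -3.31 ± 0.36 (limma adjusted p = 4.2e-05).

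Genes of the PI3K pathway gave a single call. Pik3ca, for which it was not tested whether the probe set also reads the transgene, averaged 6.98 ± 0.27 in control basal, 8.07 ± 0.31 in mutant basal, 7.0 ± 0.19 in control luminal and 7.90 ± 0.10 in mutant luminal cells. It rose by 1.09 in the basal gate (limma adjusted p = 0.00435), and the luminal effect of 0.90 was close to the threshold (limma adjusted p = 0.0593), with no overlap between mutant and control arrays in either gate. The difference of -0.19 had an interval of -0.82 to 0.45. Pik3r3, a regulatory subunit, was the only 1 of 26 measured PI3K, AKT and mTOR genes to be called. It read 5.02, 4.65 and 4.87 in control basal, 6.81, 7.48 and 7.41 in mutant basal, 4.54, 5.06 and 5.87 in control luminal and 5.72, 4.75 and 5.42 in mutant luminal cells. Only the mutant basal arrays stood high, for a difference of -2.24 ± 0.50 (limma adjusted p = 0.0327). The median of the list was -0.04.

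That call was lost with the replicate number as a block (limma adjusted p = 0.0528), with the 12 arrays alone (0.0974), with array weights (0.0664), and without control basal replicate 1 or 3, mutant basal replicate 2 or 3, control luminal replicate 2 or 3 or mutant luminal replicate 2 or 3 (0.0530 to 0.0968). FOXO factors are switched off by AKT, and of 26 measured FOXO genes and targets only Sesn3, which encodes the stress protein sestrin 3, was called. It averaged 5.96 ± 0.81 in control basal, 9.38 ± 0.26 in mutant basal, 6.93 ± 0.39 in control luminal and 7.60 ± 0.59 in mutant luminal cells, a difference of -2.75 ± 0.56 (limma adjusted p = 0.0208). Without mutant basal replicate 1, control luminal replicate 1 or mutant luminal replicate 2 it had an adjusted p of 0.0539 to 0.0597, with the 12 arrays alone 0.0848, and against GFP-negative control basal cells 0.0777. None of 15 measured ERBB receptors and ligands was called by limma (3 at an unadjusted p under 0.05, against 11.8% of all genes, median -0.12), although Nrg1, a ligand of ERBB3 and ERBB4 named after its values were seen, rose in both gates, by 2.75 in the luminal and 3.30 in the basal gate.

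Receptors and regulators of other pathways gave single calls. Sox9, a transcription factor of epithelial progenitors, averaged 9.46 ± 0.26, 10.29 ± 0.15, 9.53 ± 0.17 and 9.31 ± 0.23 in control basal, mutant basal, control luminal and mutant luminal cells, a difference of -1.04 ± 0.21 (limma adjusted p = 0.0214). It was lost with the 12 arrays alone (0.0957) and without control basal replicate 3, mutant basal replicate 2, control luminal replicate 3 or mutant luminal replicate 2 (limma adjusted p 0.0502 to 0.0646), and was -1.56 against GFP-negative control basal cells. With Lgr5 it made 1 gene higher and 1 lower of 24 measured Wnt targets and Lgr receptors (median 0.18). Fgfr2, a fibroblast growth factor receptor, fell from 8.33 ± 0.49 to 7.21 ± 0.42 in the luminal gate and averaged 9.03 ± 0.40 and 9.47 ± 0.20 in the basal gate, a difference of -1.56 ± 0.35 (limma adjusted p = 0.0338). Its call was lost with the 12 arrays alone (0.176), with the replicate block (0.0538), and without control basal replicate 1 or 3, mutant basal replicate 1 or 2, control luminal replicate 1 or 3 or mutant luminal replicate 1 or 2 (0.0619 to 0.103).

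Fgfr2 was the single call among 16 measured hormone-sensing luminal genes (median -0.20). Esr1, the estrogen receptor, differed by -0.21 (interval -1.11 to 0.69) and Pgr, the progesterone receptor, by -1.50 (interval -3.20 to 0.20), neither passing. Id1, a helix-loop-helix inhibitor induced by BMP signals, rose in the luminal gate from 5.69 ± 0.11 to 6.77 ± 0.15, with 6.20 ± 0.33 and 5.72 ± 0.26 in the basal gate. Its difference was 1.56 ± 0.28 (limma adjusted p = 0.00821), and 0.96 against GFP-negative control basal cells (limma adjusted p = 0.155). With Ltbp2 it made 2 of 25 TGF-beta and BMP genes higher and none lower (median 0.17).

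The immediate early gene Nr4a1, an orphan nuclear receptor, fell in the basal gate from 11.77 ± 0.27 to 10.90 ± 0.18 and rose in the luminal gate from 9.45 ± 0.38 to 10.52 ± 0.11, a difference of 1.93 ± 0.29 (limma adjusted p = 0.00147). Btg2, an antiproliferative immediate early gene, fell in the basal gate from 10.66 ± 0.05 to 9.90 ± 0.27 and averaged 9.46 ± 0.05 and 9.74 ± 0.09 in the luminal gate. Its difference was 1.04 ± 0.21 (limma adjusted p = 0.0199), and the call was lost without mutant basal replicate 2 or 3 or control luminal replicate 3 (0.0508 to 0.0604) and against GFP-negative control basal cells (0.85, limma adjusted p = 0.0655). These were 2 of 23 genes of the immediate early and dissociation stress list, with none lower and a median of 0.26.

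Several programmes gave no call in either direction by limma. Over all genes 11.8% had an unadjusted p under 0.05 and 39.1% lay below 0. Among 31 measured cell cycle genes, 25 lay below 0 and 1 had an unadjusted p under 0.05, and the median was -0.31, with a median effect of 0.49 in the basal and 0.12 in the luminal gate. That direction depends on the reference, since the median was 0.49 against GFP-negative control basal cells. At an unadjusted p under 0.05 lay 1 of 22 sterol and fatty acid synthesis genes (median -0.04), 3 of 16 glycolysis genes (0.09), 1 of 12 prolactin and STAT5 genes (0.24), 1 of 13 ERK feedback genes (0.16), 2 of 16 interferon-stimulated genes (0.13), 1 of 8 class I antigen presentation genes (0.04) and 0 of 13 ribosomal protein genes (-0.05). Among markers of other cell types, the same held for 3 of 18 leukocyte, 0 of 12 endothelial, 1 of 9 pericyte, 1 of 8 adipocyte, 0 of 2 erythroid and 2 of 7 Schwann and neural genes, with list medians from 0.04 to 0.16.

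Lineage genes chosen on other arrays gave a broader view. A fit of control luminal Sca1-positive against control basal GFP-negative arrays, none of which enters the comparison, named 729 luminal-high and 580 basal-high genes (6.57% of all) at an adjusted p under 0.05 and a log2 difference over 1. The luminal-high genes are thus those of Sca1-positive cells. They include Esr1 and Pgr but not Csn3, Wfdc18, Elf5 or Mfge8. Of the luminal-high genes, 22 (3.02%) were lower in the luminal gate and 4 (0.549%) higher, with a median difference of -0.41. Their median effect was 0.28 in the basal and -0.03 in the luminal gate. Of the 22, 15 rose in the basal gate and 9 fell in the luminal gate. Among them Mdga2, a cell adhesion gene named after its values were seen, fell in the luminal gate from 6.80 to 3.62 and stood at 3.47 and 3.54 in the basal gate (difference -3.25, limma adjusted p = 0.0013).

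Of the basal-high genes, 33 (5.69%) were higher in the luminal gate and 17 (2.93%) lower, with a median of 0.18. The 33 included 13 that rose in luminal cells, among them Lgals1, the lectin galectin 1 (6.46 to 9.18, named after its values were seen), and 21 that fell in basal cells, among them Scn7a, a sodium channel (10.64 to 8.07, likewise). All 17 lower ones rose in basal cells, among them Matn2, the matrix protein matrilin 2, from 6.33 to 10.29 (likewise). Over all genes the shares were 0.381% higher and 0.647% lower. The counts moved by over 1.5 times without single arrays: the 22 became 51 without control basal replicate 2 and 13 without mutant basal replicate 1, the 33 became 21 and 19 without mutant basal replicate 1 and 2, and the 17 became 11 without mutant luminal replicate 2.

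The mean of the 200 luminal-high genes minus that of the 200 basal-high genes with the smallest p gave 1 value per array. It was -2.66 ± 0.19 (SD, n = 3) in control basal, -2.46 ± 0.22 in mutant basal, 1.90 ± 0.17 in control luminal and 0.98 ± 0.16 in mutant luminal cells. The value thus differed between genotypes by 0.20 in the basal and -0.92 in the luminal gate, a difference of -1.12. Control luminal Sca1-positive cells, whose genes define the luminal side, averaged 3.78. The value therefore cannot separate lower levels of Sca1-positive genes from lower levels of luminal genes at large. The basal groups overlapped, while every mutant luminal array lay below every control luminal array.

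**Figure D4:**
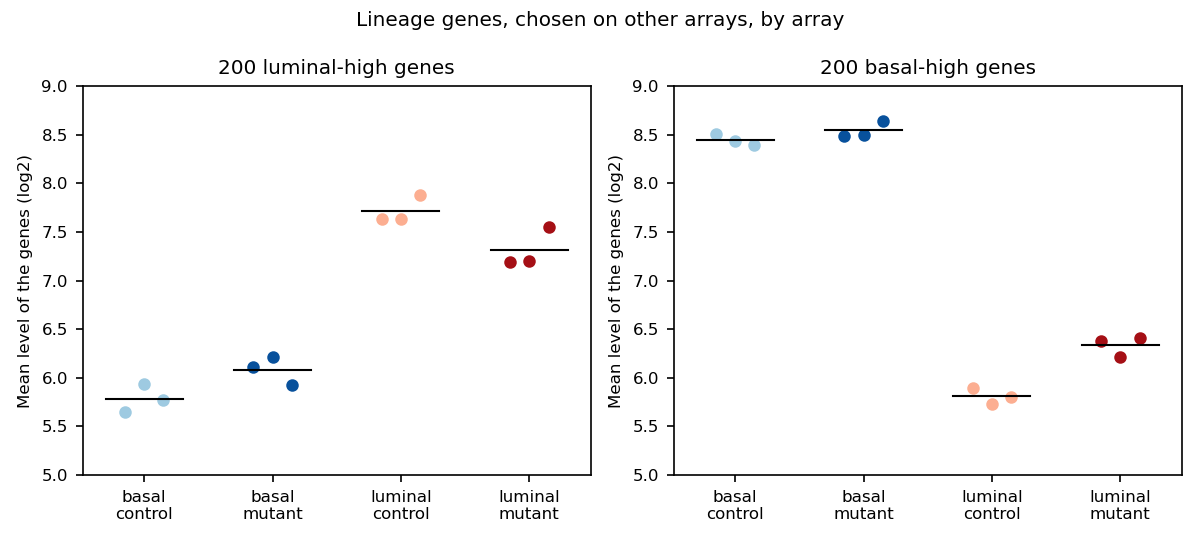
Mean level (log2, y axis) of 200 luminal-high genes (left) and 200 basal-high genes (right) on each array of the 4 groups, with a line at the group mean, for genes chosen on arrays outside the comparison. Luminal-high genes were lower and basal-high genes higher in mutant than in control luminal cells, and the basal groups lay closer together.

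The set of called genes depended on the control basal cells chosen. With GFP-negative in place of GFP-positive control basal arrays, both effects set GFP-positive mutant cells against GFP-negative control cells. The number of calls was then 215 in place of 205, with 125 genes shared, which is 61.0% of the first and 58.1% of the second list. Of the 42 named genes that were called, 11 lost their call: Serping1, Krt14, Vim, Id1, Btg2, Igfbp2, Sesn3, Mfge8, Igfbp4, Csn3 and Wfdc18. All 42 kept their sign, and 25 were called under every one of 21 alternatives, among them Ehf, Fndc1, Arhgap24, Hmox1, Dcn, Amtn, Cxcl14, Ecrg4, Jag1 and Il17b. The plot of both references shows the 42 genes side by side.

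**Figure D5:**
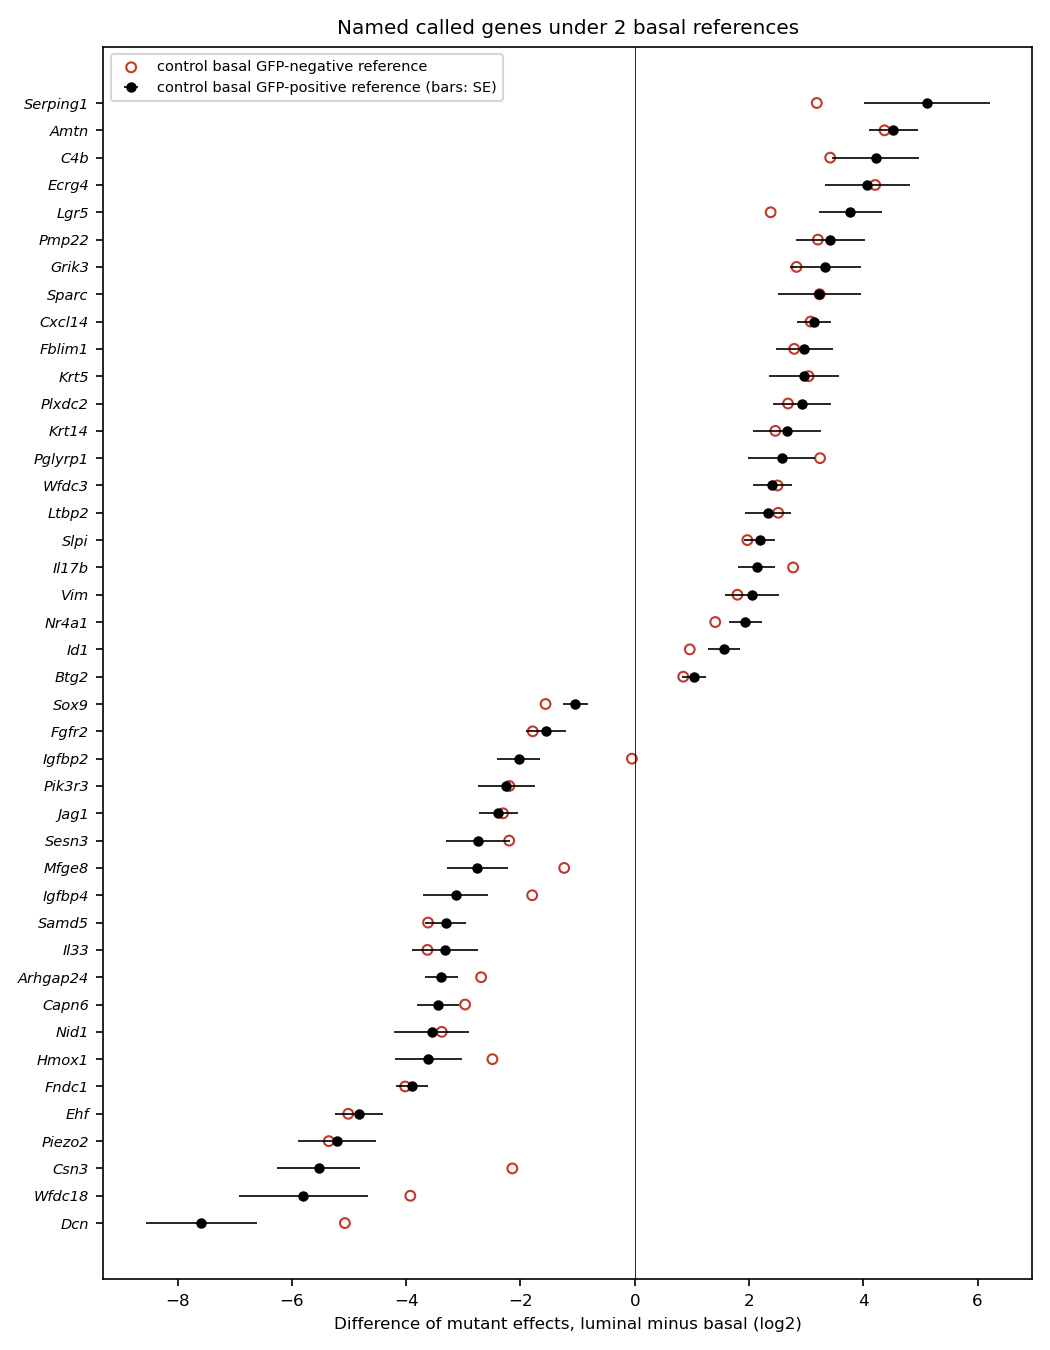
Difference of effects (log2, x axis) of the 42 named genes that were called, with black points for the control basal GFP-positive reference (bars are standard errors of the limma fit) and open red circles for the control basal GFP-negative reference. Every circle lies on the same side of 0 as its point, and Igfbp2 (-2.03 and -0.05), Csn3 (-5.53 and -2.14) and Mfge8 (-2.75 and -1.23) lie closest to 0 relative to their first value.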

How the data were processed

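The samples are sorted mammary cells on 24 Affymetrix arrays, 8 groups of 3. The authors deposited log2 expression values per probe set; the submitters' processing notes name affy, and the background correction, normalization and summarization are not given in the sources used here. The platform annotation paired 21640 of 34760 probe sets with a single gene symbol, and the other 13120 were left out. By Entrez identifier, 21553 had an entry in the GRCm38.p6 gene table, and no symbol differed (0 changes). The brightest over all arrays was kept for 954 genes with several, giving 19937 genes.

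A limma fit (limma 3.58.1, R 4.3.3) gave each group a mean (16 residual degrees of freedom). A gene was called in a contrast where its two-sided p, adjusted by Benjamini-Hochberg, was under 0.05. Errors are standard errors of the fit or standard deviations of 3 arrays. The code was tested on simulated data.

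Named genes were the 12 called genes each way with the largest difference (without predicted genes, smell receptors and small RNAs), up to 2 called members of each of 32 lists with the smallest p (492 of 540 genes measured), and Pik3ca, Lgr5, Cd24a, Ptprc, Krt5, Krt14, Krt8, Krt18, Elf5, Esr1, Pgr, Csn2 and Wap. The comparison, the lists and the rule were chosen with earlier results of these data known. Alternatives changed the arrays fitted, scaling, dim-gene filter, probe set rule, weights, variance prior, basal reference and replicate block, or left out 1 array. No pair of same-numbered arrays correlated over 0.1 in its deviations from the group means (-0.08 to 0.09), although 10 of 12 arrays were closest to their own number. The labels do not say whether the numbers mark shared sortings. They were therefore not taken as pairs in the main fit, and the replicate block stands as an alternative. Promoter sequences are RefSeq's.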

Additional observations from a re-analysis of the deposited data

Results flagged for a closer look

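By the limma test of the difference itself (adjusted p under 0.05), the mutant effect differed between the gates for 205 genes, of which the report names 42. The log2 differences of effects that were higher in the luminal gate were Serping1 (5.12), Amtn (4.53), C4b (4.22), Ecrg4 (4.07), Lgr5 (3.77), Pmp22 (3.42), Grik3 (3.33), Sparc (3.23), Cxcl14 (3.14), Fblim1 (2.97), Krt5 (2.96), Plxdc2 (2.93), Krt14 (2.67), Pglyrp1 (2.57), Wfdc3 (2.41), Ltbp2 (2.34), Slpi (2.19), Il17b (2.14), Vim (2.06), Nr4a1 (1.93), Id1 (1.56) and Btg2 (1.04). Those that were lower were Dcn (-7.59), Wfdc18 (-5.80), Csn3 (-5.53), Piezo2 (-5.21), Ehf (-4.82), Fndc1 (-3.90), Hmox1 (-3.61), Nid1 (-3.55), Capn6 (-3.45), Arhgap24 (-3.39), Il33 (-3.33), Samd5 (-3.31), Igfbp4 (-3.14), Mfge8 (-2.75), Sesn3 (-2.75), Jag1 (-2.39), Pik3r3 (-2.24), Igfbp2 (-2.03), Fgfr2 (-1.56) and Sox9 (-1.04). The values per array stand in the report.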

How the results depend on the processing

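The difference of effects was called for 205 genes and for 145 to 236 under the 9 alternatives of fit, scaling, filter, probe set rule, weights, prior and reference, and for 141 to 402 when 1 of the 12 arrays was left out. The luminal effect (145 genes) gave 113 to 203 and, with 1 array left out, 110 to 152. The basal effect (2504 genes) gave 1002 with the 12 arrays alone, 1100 after quantile normalization, 1334 after median centring, 1263 without dim genes, 641 against GFP-negative control basal cells, and 1034 to 3979 with 1 array left out. The cause was not tested, except that the dim filter tests fewer genes and the 12-array fit has fewer samples. With 1 array left out, the lineage counts, whose alternatives were chosen after seeing the data, ranged from 13 to 51 for luminal-high genes lower in the luminal gate (22), 19 to 33 for basal-high genes higher (33), 11 to 23 for basal-high genes lower (17) and 3 to 5 for luminal-high genes higher (4). With the replicate number as a block, 211 genes were called, 188 of them shared with the 205, and Fgfr2 and Pik3r3 lost their calls. None of 18 pairs of arrays with the same number correlated over 0.1 in their deviations, yet 10 of 12 arrays were closest to their own number. Of the 42 named called genes 11 lost the call with at least 1 array left out and 4 with the 12 arrays alone, and none changed sign. Probe sets near background limit what can be read for dim genes.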
